A study of Homo sapiens with 16 samples.

Results

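D-type cyclins, their kinase partners and the inhibitors that oppose them were followed in 2 lines of human anaplastic thyroid carcinoma cells. The 10 genes were CCND1, CCND2, CCND3, CDK4, CDK6, CDKN1A, CDKN1B, CDKN1C, CDKN2B and CDKN2C, taken by symbol from the 60715 genes of the deposited table of normalised counts. CAL62 cells carry a RAS mutation and 8505c cells carry a BRAF mutation. In medium that held 10% FBS, each line received DEL-22379 at 1 or at 10 µM, U0126 at 10 µM, or DMSO alone as the vehicle, for 24 h, with 2 biological replicates in each of the 8 groups. DEL-22379 is described as an inhibitor of ERK dimerization and U0126 is a MEK inhibitor, MEK being the kinase upstream of ERK. The study itself reported that short DEL-22379 pre-treatment before EGF left ERK dimers in place in its RAS-mutant lines, CAL62 among them. In its BRAF-mutant lines, dimers were lost together with phosphorylation of MEK and ERK. By a stain of membrane integrity, it also reported that 10 µM for 24 h lowered viability in RAS-mutant cells only. That drop was short of significance in the RAS-mutant line other than CAL62. In its assays of dye reduction and BrdU incorporation, 1 µM lowered viability and proliferation in BRAF-mutant lines only. At a dose between 1 and 10 µM, BrdU incorporation fell in all its lines. Inhibition itself was not measured in these libraries. The sample labels write the doses in mM and the methods of the study in µM, and µM is used here. Each mutation was represented by 1 line, so a difference between lines cannot be told apart from any other difference between these cultures.

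D-type cyclins bind and activate CDK4 and CDK6, and the active kinases phosphorylate RB1 and its relatives, which releases E2F factors and starts the transcription of S-phase genes. Growth-factor signals through ERK are a textbook input to CCND1 transcription. INK4 inhibitors such as CDKN2B and CDKN2C bind CDK4 and CDK6 directly, whereas the CIP/KIP inhibitors CDKN1A, CDKN1B and CDKN1C bind whole cyclin-kinase complexes and mainly hold back those of CDK2.

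Sequence before a RefSeq start of 3 inhibitor genes is shown first, since CDKN1A and CDKN2C were the genes whose response to 10 µM DEL-22379 was called different between the lines and CDKN2B was the gene with no reads in 1 of the lines. The stretches come from RefSeq on GRCh38.p14 and hold no base of an exon that GENCODE 29 gives the gene. CDKN1A is shown over 194 bases at chr6:36678464-36678657 (plus strand), CDKN2C over 250 bases at chr1:50960495-50960744 (plus strand) and CDKN2B over 192 bases at chr9:22009364-22009555 (minus strand). The CDKN1A stretch lies inside the gene as GENCODE 29 annotates it, in an intron of its longer transcripts and directly before the first exon of others. RefSeq has further starts of CDKN2C inside the gene, and gene-level counts do not tell which start was used. Each line below runs 5′ to 3′ on the strand of the gene, with matches in capitals.
CDKN1A: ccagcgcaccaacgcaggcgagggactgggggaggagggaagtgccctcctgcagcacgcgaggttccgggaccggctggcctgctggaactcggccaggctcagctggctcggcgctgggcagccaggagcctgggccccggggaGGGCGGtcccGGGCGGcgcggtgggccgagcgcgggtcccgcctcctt
CDKN2C: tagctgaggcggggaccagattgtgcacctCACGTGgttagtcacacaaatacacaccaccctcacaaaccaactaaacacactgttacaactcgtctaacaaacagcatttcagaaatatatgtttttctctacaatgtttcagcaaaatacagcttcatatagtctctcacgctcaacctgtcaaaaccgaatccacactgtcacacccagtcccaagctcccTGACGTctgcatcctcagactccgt
CDKN2B: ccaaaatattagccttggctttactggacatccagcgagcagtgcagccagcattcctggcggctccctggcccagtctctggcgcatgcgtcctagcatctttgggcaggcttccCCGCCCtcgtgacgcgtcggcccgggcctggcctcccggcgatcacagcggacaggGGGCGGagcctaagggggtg
The capitals mark 6 kinds of motif searched on both strands: GC box (GGGCGG), E-box (CACGTG), AP-1 (TGANTCA), CRE half-site (TGACGT), E2F (TTTNNCGC) and FOXO (TGTTTAC). Overlaps between motifs were kept. The CDKN1A stretch held 2 GC boxes and none of the other motifs. The full 250-base window of CDKN1A, which runs on into exon bases, held 4 GC boxes and none of the others. The CDKN2C stretch held 1 E-box and 1 CRE half-site and no GC box, and the CDKN2B stretch held 2 GC boxes. The lack of a GC box holds for the CDKN2C stretch shown and not for the further starts of that gene. Of their full 250-base windows, the one at chr1:50968456-50968705 held 5 GC boxes and none of the other motifs. The one at chr1:50969995-50970244 held 1 GC box, 1 E-box and 1 CRE half-site. Over stretches of the same length in 35116 RefSeq windows, a GC box stood in 33.8% at the length of the CDKN1A stretch and in 33.4% at that of CDKN2B. At the length of the CDKN2C stretch, an E-box stood in 6.34% and a CRE half-site in 7.1% of windows. These matches describe letters only.

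Across the 16 libraries, the normalised totals were 31260649 to 36449368, made from 25683055 to 43855907 reads, so 1 read was worth 0.78 to 1.34 normalised counts. Of the thyroid markers TG, SLC5A5 and FOXE1, none was above 88.75 normalised counts in any library, and TSHR was at 0 in all 16. PAX8 stood at 7285 to 12449 in CAL62 cells and 47.24 to 128.8 in 8505c cells, and NKX2-1 at 0 to 1.11 in CAL62 cells and 3765 to 6234 in 8505c cells, so each line kept 1 of these 2 thyroid factors. The epithelial genes KRT8 and KRT18 and the mesenchymal gene VIM were abundant in both lines. Other epithelial markers differed or were scarce. EPCAM stood at 1684 to 2430 in CAL62 cells and 3.24 to 28.21 in 8505c cells. KRT19 stood at 422.4 to 2771 in CAL62 cells and 23.12 to 96.67 in 8505c cells, and CDH1 at 7.22 or below throughout. The leukocyte genes PTPRC and CD3E were at 11.64 or below throughout. The endothelial gene PECAM1 stood at 0 to 59.85 in CAL62 cells and 22.38 to 44.66 in 8505c cells. CD14 stood at 27.18 to 210.5 in CAL62 cells and 16.45 to 41.66 in 8505c cells, and the endothelial gene CDH5 at 0 to 24.22 in CAL62 cells and 475.6 to 2386 in 8505c cells. A gene is called here where limma, fitted to log2(normalised count + 1) of all 16 libraries with 1 mean per group, gave an adjusted p under 0.05 over the 19127 genes tested. Those had at least 10 normalised counts in at least 2 libraries. Fold changes are on this log2 scale, which understates the change of genes with few counts. CCND2 did not pass that filter, and CDKN2B passed it through 8505c cells alone, so 9 of the 10 genes were tested and CDKN2B has no test of a response in CAL62 cells. Counts that use CAL62 cells leave out CDKN2B unless stated, whereas shares over all genes keep genes that passed through 1 line alone.

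In vehicle, the levels per length set CCND1 at the top of both lines. Per kb of exon (merged exons of GENCODE 29), CCND1 averaged 2763 ± 363.1 normalised counts in CAL62 cells and 6469 ± 257.1 in 8505c cells (SD, n = 2 each). CDK4 came next with 2487 ± 356.4 per kb in CAL62 cells and 2286 ± 123.8 in 8505c cells. In CAL62 cells the mean levels of CCND1 and CDK4 lay within 1 SD of each other, whereas in 8505c cells they did not.

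The middle of the order was crowded. In CAL62 cells it ran CDKN1B (515.9 ± 23.17 per kb), CDKN2C (380.2 ± 78.92), CCND3 (338.1 ± 68.81), CDKN1C (313 ± 399.2), CDK6 (276.9 ± 16.59) and CDKN1A (160.4 ± 112.1). From CDKN2C to CDK6 the neighbours did not differ beyond their SD. In 8505c cells it ran CCND3 (429.1 ± 86.58 per kb), CDKN1B (383.9 ± 37.78), CDK6 (372.3 ± 32.27), CDKN2C (312.9 ± 48.07), CDKN1A (143.8 ± 34.35), CDKN2B (55.48 ± 0.57) and CDKN1C (5.82 ± 0.22). CCND3, CDKN1B and CDK6 did not differ beyond their SD there. CCND2 was last but for CDKN2B in CAL62 cells, at 0.37 ± 0.53 per kb, and last in 8505c cells, at 0.08 ± 0.11.

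**Figure D1:**
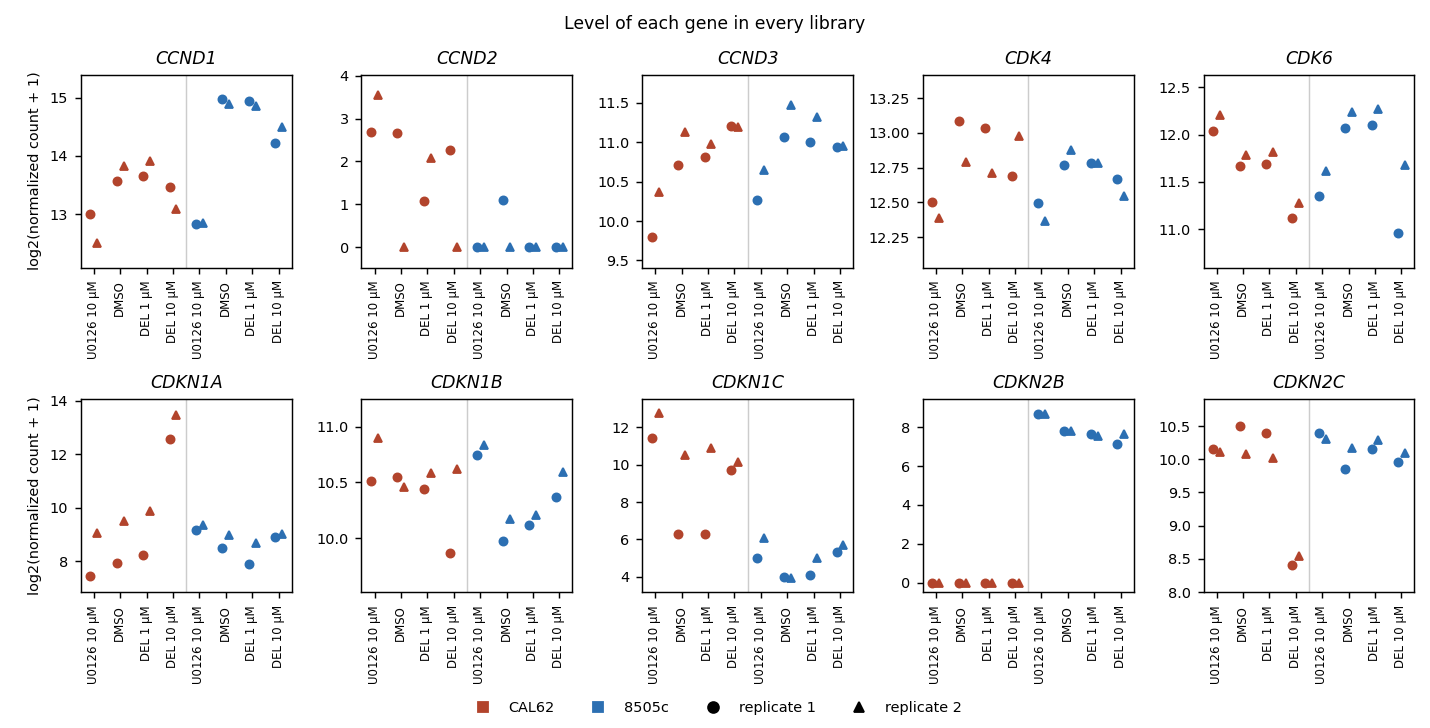
Level of each of the 10 genes in every library, as log2(normalised count + 1) on the y axis, with CAL62 cells in red on the left of each panel and 8505c cells in blue on the right; circles are replicate 1 and triangles replicate 2, and each panel has its own y range. CCND1 is lowest under U0126 in both lines, CDKN1A is highest and CDKN2C lowest in CAL62 cells under 10 µM DEL-22379, CDKN2B is at 0 in all 8 CAL62 libraries, and CDKN1C differs widely between the CAL62 replicates.

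Between the vehicle-treated lines, CDKN1C was called higher and CCND1 lower in CAL62 cells, 2 of the 8 genes tested other than CDKN2B, against 53% of all genes tested (25.6% higher and 27.4% lower). CDKN2B, which passed the filter through 8505c cells alone and so had to differ, is left out of this count. Genes of that kind remain in the share over all genes, so the count and the share are not matched. CCND1 had 12106.03 and 14586.37 normalised counts in CAL62 cells, against 32122.5 and 30366.42 in 8505c cells. The libraries of the lines did not overlap, and the log2 difference was -1.23 ± 0.18 (SE, limma, adjusted p = 8.01e-05). CDKN1C had 76.28 and 1475.16 in CAL62 cells, against 14.81 and 14.04 in 8505c cells. Both CAL62 libraries were above both 8505c libraries, but they differed from each other 19.3-fold, and the log2 difference of 4.45 ± 1.41 (adjusted p = 0.0203) was 2.33 and not called (adjusted p = 0.198) without CAL62 DMSO replicate 2. It was also not called without 8505c DMSO replicate 1 (adjusted p = 0.0651) or replicate 2 (adjusted p = 0.0716), or with no filter on low values (adjusted p = 0.0656). CDK6, CCND3, CDK4, CDKN1A, CDKN1B and CDKN2C were not called, with log2 differences of -0.43 (95% interval -0.83 to -0.02) for CDK6 and 0.43 (-0.01 to 0.87) for CDKN1B as the largest in size. CDK6 was called without 8505c DEL-22379 10 µM replicate 1 or 2 (adjusted p = 0.0143 each), CDKN1B without CAL62 DEL-22379 10 µM replicate 1 or 2 (adjusted p = 0.0208 each), and CDKN2C without CAL62 DMSO replicate 2 (0.49, adjusted p = 0.0436). Under scaling to equal totals, which moved the median of all genes by 0.117, CDKN1B (0.55, adjusted p = 0.0393) and CDKN2C (0.40, adjusted p = 0.044) were called higher in CAL62 cells as well.

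No gene of the 10 was called at 1 µM DEL-22379, in CAL62 or in 8505c cells, by limma, edgeR or DESeq2. At an unadjusted p under 0.05 limma also gave none of them in either line. Over all genes, 0% were called in CAL62 cells (0 of 19127, 336 at an unadjusted p under 0.05, 0 by edgeR and 2 by DESeq2) and 0.0157% in 8505c cells (3 of 19127, 740 at an unadjusted p under 0.05, 3 by edgeR and 37 by DESeq2). For CCND1 the 95% intervals of the log2 difference from DMSO were -0.30 to 0.47 in CAL62 cells and -0.42 to 0.35 in 8505c cells. For CDKN1A they were wider, -1.08 to 1.74 in CAL62 cells and -1.87 to 0.95 in 8505c cells.

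At 10 µM DEL-22379, CAL62 cells held more CDKN1A and less CDKN2C and CDK6, and 8505c cells less CCND1 and CDK6. In CAL62 cells 3 of 8 genes were called, 1 higher and 2 lower, against 33.9% of all genes (17.1% higher and 16.8% lower). In 8505c cells 2 of 9 were called, both lower, against 13.6% of all genes (7.07% higher and 6.57% lower). Of all calls in 8505c cells 51.9% were higher, and 71% under scaling to equal totals, which moved the median of all genes by 0.13. U0126 lowered D cyclins in both lines. It gave 3 of 8 calls in CAL62 cells (CCND1, CCND3 and CDK4, all lower), against 29.2% of all genes (14.1% higher and 15.1% lower), and 4 of 9 in 8505c cells (CCND1, CCND3 and CDK6 lower, CDKN1B higher), against 12.7% (6.8% higher and 5.87% lower). In these bulk samples, fewer cells expressing a gene and less RNA per cell cannot be told apart.

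**Figure D2:**
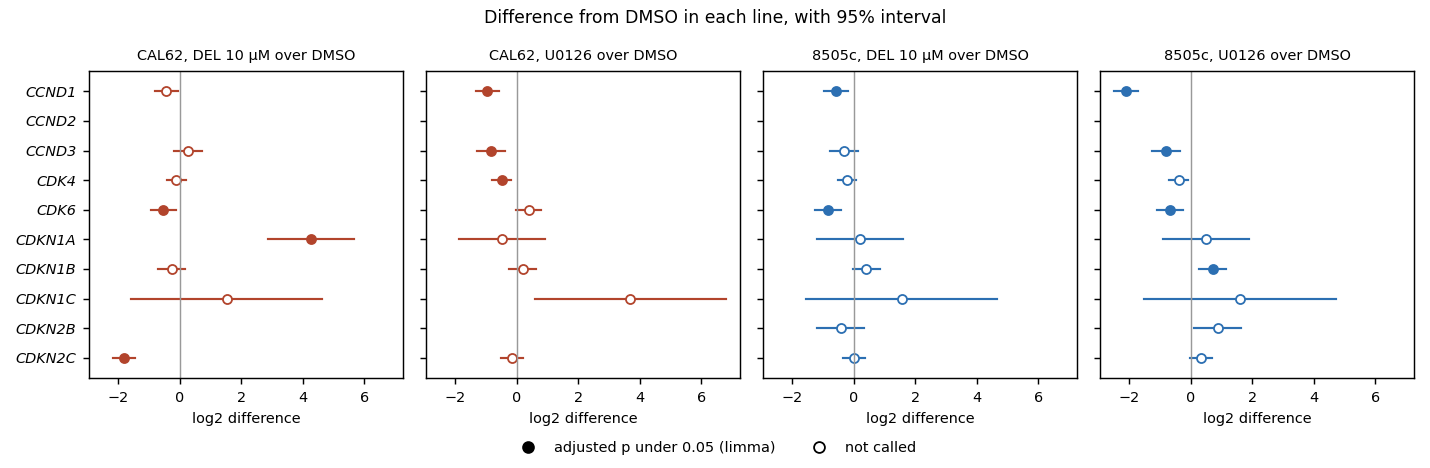
Log2 difference from DMSO (x axis) of each gene (y axis) for 10 µM DEL-22379 and U0126 in CAL62 cells (red) and 8505c cells (blue); points are limma estimates, bars their 95% intervals, and filled points passed an adjusted p of 0.05. CCND2 was not tested and CDKN2B has no value in CAL62 cells. The points farthest from 0 among the filled ones are CDKN1A and CDKN2C in CAL62 cells under DEL-22379, at 4.27 and -1.81, and CCND1 in 8505c cells under U0126, at -2.10.

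CCND1 (ENSG00000110092.4, chr11:69641087-69654474, plus strand) encodes cyclin D1, the most abundant D cyclin of both lines. In 8505c cells it had 7266.08 and 7357.43 normalised counts under U0126, against 32122.5 and 30366.42 in DMSO. No U0126 library reached the DMSO level, the U0126 mean was 23.4% of the DMSO mean, and the log2 difference was -2.10 ± 0.18 (SE, limma, adjusted p = 3.64e-05). In CAL62 cells it had 8152.54 and 5808.04 under U0126, against 12106.03 and 14586.37 in DMSO. These too did not overlap, at 52.3% of the DMSO mean and a log2 difference of -0.95 ± 0.18 (adjusted p = 0.00203). Both calls held when any 1 of the 16 libraries was left out.

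Under 10 µM DEL-22379, CCND1 had 19017.95 and 22960.79 normalised counts in 8505c cells, against 32122.5 and 30366.42 in DMSO. Both treated libraries were below both vehicle libraries, and the log2 difference of -0.58 ± 0.18 was close to the threshold (limma, adjusted p = 0.0486). The call was lost when any 1 of the 8 8505c libraries was left out (adjusted p 0.0571 to 0.298), and under scaling to equal totals (-0.44, adjusted p = 0.128) or quantile normalization (-0.44, adjusted p = 0.143), with a pseudocount of 0.5 (adjusted p = 0.0506), without trended and robust moderation (adjusted p = 0.0915) and by edgeR (adjusted p = 0.0535). In CAL62 cells CCND1 had 11265.87 and 8669.66 under 10 µM DEL-22379, against 12106.03 and 14586.37 in DMSO, a log2 difference of -0.43 that was not called (adjusted p = 0.0821) except without CAL62 DEL-22379 10 µM replicate 1 (-0.62, adjusted p = 0.0359). At 1 µM, the libraries held 12921.69 and 15429.66 in CAL62 cells and 31359.02 and 29776.2 in 8505c cells, inside or next to the DMSO range. Exons of CCND1 overlap those of LTO1 on the other strand, and whether the counting used strand is not given in the sources used here. LTO1 itself held 586.3 to 2687 normalised counts, the most in CAL62 cells with 10 µM DEL-22379 (2686.6 and 2401.42).

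CCND3 (ENSG00000112576.13, chr6:41934933-42050357, minus strand) encodes cyclin D3 and was lower under U0126 in both lines. In CAL62 cells it had 886.82 and 1315.79 normalised counts under U0126, against 1679.53 and 2244.13 in DMSO. In 8505c cells it had 1227.13 and 1600.27 under U0126, against 2134.36 and 2844.79 in DMSO. The groups did not overlap in either line, and the log2 differences were -0.85 ± 0.21 (limma, adjusted p = 0.01) in CAL62 cells and -0.81 ± 0.21 (adjusted p = 0.0247) in 8505c cells. The CAL62 call was lost without CAL62 U0126 replicate 1 (adjusted p = 0.109) or DMSO replicate 2 (adjusted p = 0.0619). The 8505c call was lost without 8505c U0126 replicate 1 (adjusted p = 0.196), U0126 replicate 2 (adjusted p = 0.0537) or DMSO replicate 2 (adjusted p = 0.187), under scaling to equal totals (adjusted p = 0.061) and without trended and robust moderation (adjusted p = 0.0607).

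CCND3 was not called under 10 µM DEL-22379. It had 2358.6 and 2333.31 normalised counts in CAL62 cells, against 1679.53 and 2244.13 in DMSO, and 1968.67 and 1984.56 in 8505c cells, against 2134.36 and 2844.79 in DMSO. The treated CAL62 libraries were above and the treated 8505c libraries below their vehicle libraries. The difference between lines in this response, 0.59 on the log2 scale (95% interval -0.06 to 1.24), was not called (limma, adjusted p = 0.204).

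CCND2 (ENSG00000118971.9, chr12:4273772-4305350, plus strand), which encodes cyclin D2, was close to absent. CCND2 gave 30 reads over all CAL62 libraries, in 6 of 8 with at most 12 in 1 library, and 1 read in 1 of 8 8505c libraries. AC008012.1, annotated on the same strand with overlapping exons, held 0 to 78.97 normalised counts, and how reads shared by both genes were counted is not given in the sources used here. Per kb, CCND1 therefore made up 81.7% to 94.8% of the summed D cyclin signal of a library, with the lowest share in CAL62 cells under 10 µM DEL-22379 and CCND3 as nearly all of the rest.

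CDK4 (ENSG00000135446.17, chr12:57747727-57756013, minus strand) and CDK6 (ENSG00000105810.10, chr7:92604921-92836594, minus strand) encode the kinases that D cyclins activate. CDK4 was the steadier of the pair. In CAL62 cells it had 5802.8 and 5368.55 normalised counts under U0126, against 8677.37 and 7080.41 in DMSO. Its groups did not overlap, and the log2 difference was -0.49 ± 0.14 (limma, adjusted p = 0.0206). The call was lost without CAL62 U0126 replicate 1 (adjusted p = 0.0557) or 2 (adjusted p = 0.126), without DMSO replicate 1 (adjusted p = 0.204), and with CAL62 libraries fitted alone (adjusted p = 0.0874). In 8505c cells CDK4 had 5778.56 and 5280.72 under U0126, against 6964.87 and 7519.54 in DMSO. That log2 difference of -0.39 (95% interval -0.70 to -0.08) was called only in a fit of the 8505c libraries alone (adjusted p = 0.0112, against 0.0926 over all libraries). The difference between lines in this response was -0.10 (-0.53 to 0.33). Exons of CDK4 overlap those of TSPAN31 on the other strand, which held 529.1 to 2041 normalised counts and was highest in the 2 CAL62 U0126 libraries.

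CDK6 was lower in both lines under 10 µM DEL-22379. It had 2216.93 and 2479.85 normalised counts in CAL62 cells under the compound, against 3250.67 and 3538.36 in DMSO. In 8505c cells it had 1993.35 and 3277.56, against 4284.67 and 4844.25 in DMSO. Neither line showed an overlap, although the treated 8505c libraries differed from each other 1.64-fold. The log2 differences were -0.53 ± 0.19 in CAL62 cells (limma, adjusted p = 0.0455) and -0.83 ± 0.19 in 8505c cells (adjusted p = 0.0135). The CAL62 call was lost in 13 of the 16 fits that left out 1 library (adjusted p 0.0502 to 0.169), and held without 8505c DEL-22379 10 µM replicate 1 or 2 or CAL62 DEL-22379 1 µM replicate 2. It was also lost with no filter on low values (adjusted p = 0.0566) and without trended and robust moderation (adjusted p = 0.0858). The 8505c call was lost without 8505c DEL-22379 10 µM replicate 1 (-0.48, adjusted p = 0.128), DMSO replicate 1 (adjusted p = 0.0515) or DMSO replicate 2 (adjusted p = 0.099).

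Under U0126, CDK6 stood on different sides of DMSO in the lines. It had 4188.6 and 4723.61 normalised counts in CAL62 cells, against 3250.67 and 3538.36 in DMSO, a log2 difference of 0.39 (95% interval -0.02 to 0.80) that was not called (limma, adjusted p = 0.14). It had 2607.06 and 3139.8 in 8505c cells, against 4284.67 and 4844.25 in DMSO, and was called lower there (-0.67 ± 0.19, adjusted p = 0.0353). The 8505c call was lost without 8505c U0126 replicate 1 (adjusted p = 0.227) or 2 (0.0839), DMSO replicate 1 (0.0973) or 2 (0.185), or DEL-22379 1 µM replicate 2 (adjusted p = 0.05). It was also lost under scaling to equal totals (adjusted p = 0.062), quantile normalization (0.0558) and limma without trended and robust moderation (adjusted p = 0.0784). The CAL62 difference was called without 8505c DEL-22379 10 µM replicate 1 (adjusted p = 0.0378) or 2 (adjusted p = 0.038). CDK4 made up 81.5% to 92.7% of the CDK4 and CDK6 signal per kb over the 16 libraries. The highest share was that of 8505c cells with 10 µM DEL-22379, replicate 1, and the lowest shares were those of CAL62 cells with U0126 (84.3% and 81.5%).

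CDKN1A (ENSG00000124762.14, chr6:36676460-36687339, plus strand), a CIP/KIP inhibitor known for its induction by DNA damage, had the largest called response to a compound of the 9 genes tested. In CAL62 cells it had 6086.66 and 11185.63 normalised counts under 10 µM DEL-22379, against 247.58 and 731.12 in DMSO. The lower treated library was above the higher vehicle library by a wide margin, the means differed 17.6-fold, and the log2 difference was 4.27 ± 0.65 (limma, adjusted p = 0.000494), called in all 16 fits that left out 1 library. In 8505c cells CDKN1A had 478.36 and 522.72 under 10 µM DEL-22379, against 364.65 and 512.82 in DMSO. Those groups overlapped, with a log2 difference of 0.21 (95% interval -1.20 to 1.62). The spread behind this interval includes the CAL62 replicates, which differed 2.95-fold in DMSO, against 1.41-fold for those of 8505c cells. The response of CAL62 cells exceeded that of 8505c cells by 4.07 ± 0.91 on the log2 scale (adjusted p = 0.0139), a call lost without 8505c DMSO replicate 2 (adjusted p = 0.0503) or CAL62 DEL-22379 10 µM replicate 2 (adjusted p = 0.0576).

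U0126 did not give a called change of CDKN1A in either line. The libraries had 173.92 and 538.64 normalised counts in CAL62 cells, against 247.58 and 731.12 in DMSO. In 8505c cells they had 574.58 and 651.74, against 364.65 and 512.82 in DMSO. Both U0126 libraries of 8505c cells were above both vehicle libraries, and the spread of the fit includes the CAL62 replicates here too. At 1 µM DEL-22379 the values were 299.11 and 952.8 in CAL62 cells and 240.23 and 412.7 in 8505c cells. In CAL62 cells replicate 2 was above replicate 1 in all 4 groups, 2.95-fold in DMSO, 3.19-fold and 1.84-fold with 1 and 10 µM DEL-22379 and 3.1-fold with U0126. Of the genes whose mean reached 50 in the CAL62 DMSO libraries, 1.88% had a gap between replicates at least as large as that of CDKN1A.

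CDKN1B (ENSG00000111276.11, chr12:12715058-12722371, plus strand), the CIP/KIP inhibitor that marks resting cells, was higher under U0126 in 8505c cells. It had 1719.07 and 1830.25 normalised counts under U0126, against 1003.93 and 1154.11 in DMSO. The groups did not overlap, and the log2 difference was 0.72 ± 0.20 (limma, adjusted p = 0.0361). The call was lost without DEL-22379 1 µM replicate 1 (adjusted p = 0.0531) or 2 (0.0532), U0126 replicate 1 (0.122) or 2 (0.186), or DMSO replicate 1 (0.207) or 2 (adjusted p = 0.0906) of 8505c cells, and without trended and robust moderation (adjusted p = 0.0776). In CAL62 cells CDKN1B had 1455.68 and 1902.66 under U0126, against 1496.19 and 1404.08 in DMSO. These overlapped, and the difference between lines was -0.52 (95% interval -1.14 to 0.10).

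With 10 µM DEL-22379, CDKN1B had 931.7 and 1572.74 normalised counts in CAL62 cells, against 1496.19 and 1404.08 in DMSO, and the treated libraries stood on both sides of the vehicle libraries. In 8505c cells it had 1322.24 and 1547.06, against 1003.93 and 1154.11 in DMSO, a log2 difference of 0.41 (95% interval -0.03 to 0.85) that was called with 8505c libraries alone (adjusted p = 0.0213). The CAL62 value turned on 1 library. Without CAL62 DEL-22379 10 µM replicate 2 the log2 difference was -0.64 and called (limma, adjusted p = 0.0217), whereas over all libraries it was -0.26 (adjusted p = 0.355). The difference between lines was likewise called without that library (-1.05, adjusted p = 0.0158) and not with it (-0.67, adjusted p = 0.138).

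CDKN1C (ENSG00000129757.14, chr11:2883213-2885773, minus strand), the third CIP/KIP inhibitor, is an imprinted gene with a role in growth control of the embryo. Its CAL62 replicates stood far apart. It had 2771.87 and 6943.39 normalised counts under U0126, against 76.28 and 1475.16 in DMSO. Both U0126 libraries were above both vehicle libraries and the means differed 6.26-fold. The log2 difference of 3.70 ± 1.41 (95% interval 0.59 to 6.81) was not called (limma, adjusted p = 0.0713). It was called without CAL62 DMSO replicate 2 (5.83, adjusted p = 0.00964) and without CAL62 DEL-22379 1 µM replicate 1 (adjusted p = 0.0176) or 2 (adjusted p = 0.0165). In fits with a single CAL62 replicate number, added after the data were seen, the log2 difference was 5.17 by replicate 1 and 2.23 by replicate 2. Such a fit holds 1 CAL62 library per group and takes its spread from 8505c cells, so no p-value is given for it.

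The gap between replicates was also wide at 1 µM DEL-22379 and narrow at 10 µM. CDKN1C had 837.25 and 1130.02 normalised counts in CAL62 cells with 10 µM DEL-22379, against 76.28 and 1475.16 in DMSO. The treated libraries lay between the vehicle libraries and differed from each other 1.35-fold. At 1 µM it had 76.44 and 1873.3, a 24.5-fold gap between replicates. Of the genes whose mean reached 50, 0.0865% had a gap as large as that of CDKN1C in the DMSO libraries and 26.1% in the 10 µM DEL-22379 libraries. Proliferation markers also differed by replicate number, with MKI67 at 45686.02 in DMSO replicate 1 and 22681.3 in DMSO replicate 2 of CAL62 cells, and higher in replicate 1 in all 4 CAL62 groups. Its part in the CDKN1C gap was not tested.

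In 8505c cells CDKN1C was scarce. It had 31.18 and 66.82 normalised counts under U0126 and 38.79 and 51.14 under 10 µM DEL-22379, against 14.81 and 14.04 in DMSO. Both treated groups were above DMSO in every library. In the fit of all libraries, whose spread includes the CAL62 replicates, neither log2 difference was called (1.60 for U0126, adjusted p = 0.521, and 1.56 for DEL-22379, limma adjusted p = 0.499). In a fit of the 8505c libraries alone, both were called (adjusted p = 0.0237 for U0126 and 0.0256 for DEL-22379).

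CDKN2C (ENSG00000123080.12, chr1:50960745-50974633, plus strand) is an INK4 inhibitor of CDK4 and CDK6, and fell in CAL62 cells under 10 µM DEL-22379. It had 336.94 and 372.54 normalised counts, against 1446.67 and 1076.37 in DMSO. The treated libraries agreed closely and were far below the vehicle libraries, at 28.1% of the DMSO mean. The log2 difference was -1.81 ± 0.17 (limma, adjusted p = 1.84e-05), called in all 16 fits that left out 1 library. In 8505c cells CDKN2C had 990.8 and 1088.46 under 10 µM DEL-22379, against 925.31 and 1150.87 in DMSO. Those groups overlapped, with a log2 difference of 0.01 (95% interval -0.35 to 0.37). The difference between lines was -1.82 ± 0.24 (adjusted p = 0.000752), and it too was called in all 16 such fits.

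No change of CDKN2C was called under U0126. The libraries had 1143.17 and 1107.65 normalised counts in CAL62 cells, against 1446.67 and 1076.37 in DMSO, and 1352.64 and 1266.16 in 8505c cells, against 925.31 and 1150.87 in DMSO. The CAL62 libraries lay between their vehicle libraries and the 8505c libraries above theirs, and neither difference was called (limma, adjusted p = 0.548 in CAL62 cells and 0.207 in 8505c cells). The 95% intervals of the log2 difference were -0.51 to 0.21 in CAL62 cells and -0.02 to 0.71 in 8505c cells.

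CDKN2B (ENSG00000147883.12, chr9:22002903-22009363, minus strand), the INK4 inhibitor known for its induction by TGF-beta, had no reads in any of the 8 CAL62 libraries. A count of 0 allows up to 3 reads, or 2.42 to 4.01 normalised counts per library. Vehicle-treated CAL62 cells were thus at least 55.7-fold lower than vehicle-treated 8505c cells, which had 226.77 and 223.48. In 8505c cells CDKN2B had 412.42 and 418.29 under U0126, against 226.77 and 223.48 in DMSO. Both U0126 libraries were above both vehicle libraries, but the log2 difference of 0.88 (95% interval 0.11 to 1.65) was not called over all libraries (limma, adjusted p = 0.126). It was called with 8505c libraries alone (adjusted p = 0.00595), by DESeq2 (adjusted p = 0.0168), with a pseudocount of 5 (adjusted p = 0.0339) and without trended and robust moderation (adjusted p = 0.00675). With 10 µM DEL-22379 it had 139.86 and 200.48, and with 1 µM 198.02 and 185.31.

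Summed per kb, the 5 inhibitors stood higher relative to the 3 D cyclins under both compounds at 10 µM than in DMSO, in each line. In CAL62 cells the ratio of summed inhibitors to summed D cyclins was 1.01 and 2.18 under 10 µM DEL-22379 and 1.11 and 2.79 under U0126, against 0.386 and 0.487 in DMSO. Every treated CAL62 library was above both vehicle libraries. Under DEL-22379, CDKN1A made up 72.1% and 76.5% of the summed inhibitors and CDKN1C 12.2% and 9.51%. Under U0126 the order was turned round, with CDKN1C at 54.9% and 70.2% and CDKN1A at 2.8% and 4.43%. In 8505c cells the ratio was 0.77 and 0.765 under U0126 and 0.228 and 0.22 under 10 µM DEL-22379, against 0.116 and 0.146 in DMSO. CDKN1B was the largest share of the inhibitors in every 8505c library, at 41.6% to 49.1%. The sums describe transcripts and were given no test.

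**Figure D3:**
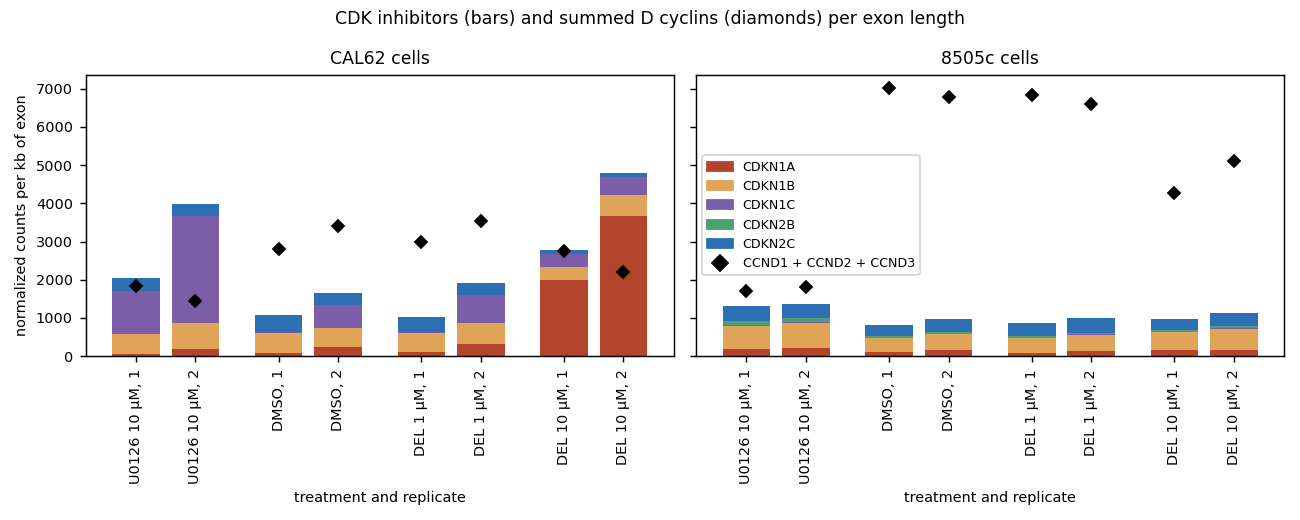
Normalised counts per kb of merged exon (y axis) in each library (x axis, treatment and replicate number) of CAL62 cells, left, and 8505c cells, right; stacked bars are the 5 CDK inhibitors and black diamonds the sum of the 3 D cyclins. Under 10 µM DEL-22379 the CAL62 bars are mostly CDKN1A (72.1% and 76.5%), under U0126 mostly CDKN1C (54.9% and 70.2%), and the 8505c diamonds are at 1716 and 1799 under U0126, against 7019 and 6777 in DMSO.

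Tests of the difference between lines were called for 4 responses. At 10 µM DEL-22379, CDKN1A and CDKN2C were called, 2 of 8 genes against 14.4% of all genes. Of all those calls 50.1% were higher in CAL62 cells, and 26.8% under scaling to equal totals, which moved the median of all genes by -0.194. For U0126, CCND1 and CDK6 were called, 2 of 8 against 5.69% of all genes. The response of CCND1 was 1.15 ± 0.25 higher on the log2 scale in CAL62 than in 8505c cells (limma, adjusted p = 0.0186), and that of CDK6 was 1.06 ± 0.27 higher (adjusted p = 0.0364). CCND1 was lower under U0126 in both lines and to a smaller degree in CAL62 cells, whereas CDK6 was lower in 8505c cells alone by the tests above.

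Both differences for U0126 depended on single libraries. The CCND1 call was lost without 8505c U0126 replicate 1 (adjusted p = 0.0676) or 2 (0.0695), 8505c DMSO replicate 1 (0.0742) or 2 (0.0538), CAL62 U0126 replicate 1 (0.0769) or CAL62 DMSO replicate 1 (adjusted p = 0.0766). Its log2 difference stayed between 0.90 and 1.39. The CDK6 call was lost without 9 of the 16 libraries (adjusted p 0.0543 to 0.144). These were both 8505c U0126, both 8505c DMSO, both 8505c DEL-22379 1 µM and both CAL62 U0126 libraries and CAL62 DMSO replicate 1. Without trended and robust moderation neither CCND1 (adjusted p = 0.0503) nor CDK6 (adjusted p = 0.0869) was called.

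**Figure D4:**
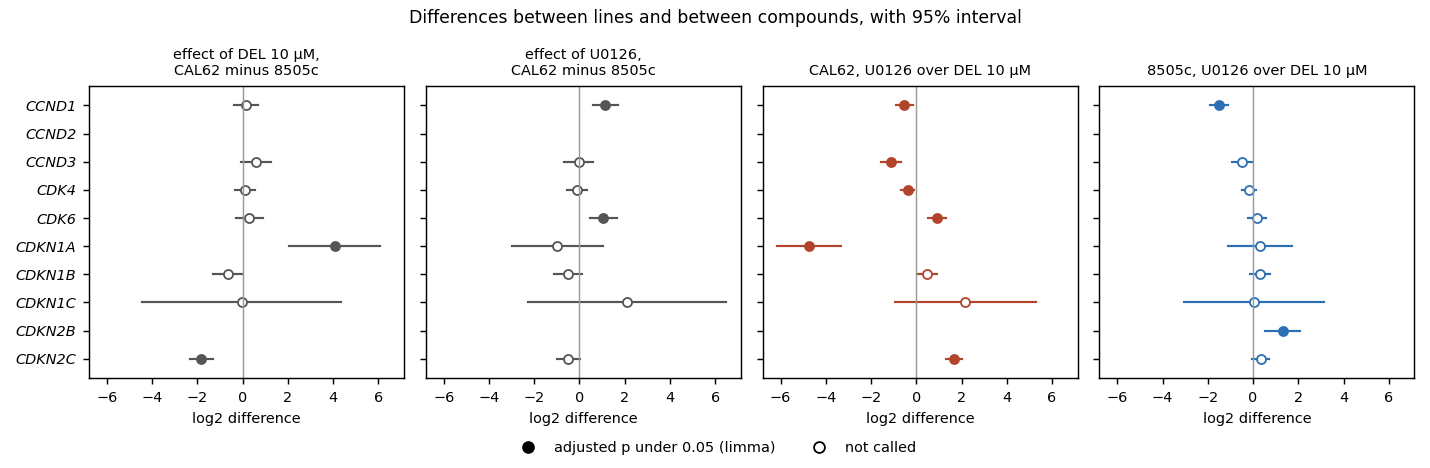
Log2 differences (x axis) of each gene (y axis) with 95% intervals: the response in CAL62 minus that in 8505c cells for 10 µM DEL-22379 and for U0126 (grey), and U0126 over 10 µM DEL-22379 in CAL62 (red) and 8505c cells (blue); filled points passed an adjusted p of 0.05 in limma. CDKN1A is at 4.07 for the DEL-22379 response and at -4.75 for U0126 over DEL-22379 in CAL62 cells, CDKN2C is at -1.82 and 1.66 in the same panels, and CDKN2B is left out of the panels that use CAL62 cells.

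The compounds were also set against each other at the stated dose of 10 µM, in comparisons whose difference uses no DMSO library, although the spread is taken from all 16 libraries. Matched doses do not mean matched inhibition. In CAL62 cells 6 of 8 genes were called, 2 higher and 4 lower with U0126 than with DEL-22379, against 43.1% of all genes (21% higher and 22.1% lower). By edgeR 4 of the 8 were called, and 8123 genes over all. CDKN1A was lower with U0126 (log2 difference -4.75 ± 0.65, limma, adjusted p = 0.000127) and CDKN2C higher (1.66 ± 0.17, adjusted p = 1.01e-05). CCND3 was lower (-1.12 ± 0.21, adjusted p = 0.00101) and CDK6 higher (0.92 ± 0.19, adjusted p = 0.00172). These 4 calls held in all 16 fits that left out 1 library.

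CCND1 was also lower with U0126 than with DEL-22379 in CAL62 cells (-0.52, adjusted p = 0.0311), a call lost without CAL62 DEL-22379 10 µM replicate 1 (-0.33, adjusted p = 0.215) or U0126 replicate 2 (-0.28, adjusted p = 0.301). CDK4 was lower too (-0.39, limma, adjusted p = 0.042), and that call was lost without 9 of the 16 libraries (adjusted p 0.0533 to 0.266). For CDK4 these were both 8505c DEL-22379 1 µM, both 8505c U0126, both 8505c DMSO and both CAL62 U0126 libraries and CAL62 DEL-22379 10 µM replicate 2. Under scaling to equal totals, neither CCND1 (adjusted p = 0.0751) nor CDK4 (adjusted p = 0.0624) was called. Both were also lost under quantile normalization (adjusted p = 0.203 and 0.347) and by edgeR (adjusted p = 0.0608 and 0.0742). The same held with CAL62 libraries alone (adjusted p = 0.0936 and 0.121) and without trended and robust moderation (adjusted p = 0.059 and 0.0746). CDKN1B was not called in the main fit (0.46, 95% interval 0.02 to 0.90, limma, adjusted p = 0.0872). It was called under scaling to equal totals (adjusted p = 0.0498) and quantile normalization (adjusted p = 0.0447). Without CAL62 DEL-22379 10 µM replicate 2 its log2 difference was 0.84.

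In 8505c cells 2 of 9 genes were called between the compounds, 1 higher and 1 lower, against 9.94% of all genes (5.39% higher and 4.55% lower). Of all those calls 54.2% were higher with U0126, and 38.7% under scaling to equal totals. CCND1 was lower with U0126 than with 10 µM DEL-22379 (-1.52 ± 0.18, limma, adjusted p = 0.000538), in all 16 fits that left out 1 library. CDKN2B was higher with U0126 (1.31 ± 0.35, adjusted p = 0.0365). Its call was lost without either DEL-22379 1 µM, U0126 or DMSO library or without DEL-22379 10 µM replicate 1 of 8505c cells (adjusted p 0.059 to 0.256), with a pseudocount of 0.5 (adjusted p = 0.0675) and with no filter on low values (adjusted p = 0.0901). For CDK6, lower than DMSO with both compounds in 8505c cells, the difference between compounds was 0.16 (95% interval -0.25 to 0.57).

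Genes of like pattern were sought over the 16 libraries after the mean of each line was taken off. Pearson's r over 11306 protein-coding genes, on log2 values of libraries that share their treatments, was highest for FHOD1 (0.946), STAMBPL1 (0.929) and CD274 (0.928) with CCND1. For CDKN1A it was highest for NFKBIE (0.978), JUNB (0.973) and MIDN (0.967). For CDKN2C it was highest for NMRAL1 (0.976), ABLIM1 (0.970) and NDUFB4 (0.966). These are descriptions of the pattern across 16 libraries.

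The kinase step after D cyclins was read from 8 genes for cyclin E, cyclin A and CDK activation. In CAL62 cells 5 of 8 were called under U0126, all lower, with a median log2 difference of -1.38, against 0.045 over all genes, of which 29.2% were called. They included CCNE2 (-2.62, limma adjusted p = 4.15e-06), a partner of CDK2, and CDK2 itself (-1.46, adjusted p = 1.59e-05). Under 10 µM DEL-22379, 4 of 8 were lower and 1 higher in CAL62 cells, against 33.9% of all genes called. CDC25A, a phosphatase that activates CDK2, was lower (-1.21, adjusted p = 0.00179), and CDK7, the catalytic part of the CDK-activating kinase, was higher (1.07, adjusted p = 9.99e-05). In 8505c cells 2 of 8 were called under each compound, all lower, against 12.7% of all genes under U0126 and 13.6% under DEL-22379. CCNE2 was lower with both, at -0.82 (adjusted p = 0.02) under U0126 and -0.92 (adjusted p = 0.012) under DEL-22379, the median of the list being -0.415 and -0.375.

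Of 13 genes for pocket proteins and E2F factors, the targets downstream of CDK4 and CDK6, 9 were lower and 1 higher in CAL62 cells under U0126 (median -0.79), against 29.2% of all genes called. E2F1, the best known activator of the family, was at -2.98 (limma, adjusted p = 5.94e-06) and E2F2 at -2.83 (adjusted p = 2.33e-05). In CAL62 cells under 10 µM DEL-22379 3 of 13 were lower and none higher, a smaller share than the 33.9% of all genes called, with E2F2 at -2.02 (adjusted p = 0.000228). In 8505c cells 3 were lower and 1 higher under U0126, against 12.7% of all genes called, and 2 lower under DEL-22379, near the 13.6% of all genes. The count under DEL-22379 depended on the method. DESeq2 called 6 of the 13 and 3346 genes over all, whereas edgeR called 2 of the 13 and 2501 over all. Named after their values were seen, RB1 was not called in any of the 4 comparisons, and E2F1 was not called under DEL-22379 in CAL62 cells, at -0.04 (95% interval -0.57 to 0.49). MKI67, a proliferation marker, had 5940.49 and 4268.94 normalised counts in CAL62 cells under U0126, against 45686.02 and 22681.3 in DMSO (log2 difference -2.68, adjusted p = 0.000273). With 10 µM DEL-22379 it had 24217.73 and 12495.22 (-0.89, adjusted p = 0.0795). TOP2A, another such marker, had 3293.63 and 2136.7 under U0126, against 16094.09 and 10681.53 in DMSO. The part of these markers in the changes of the cyclins, CDK4 and the inhibitors was not tested. In 8505c cells under U0126 MKI67 had 18902.72 and 17914.54, against 27490.27 and 24873.32 in DMSO, and was not called (adjusted p = 0.411).

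Of 11 genes for the turnover and assembly of D cyclins and CDK inhibitors, 6 were higher and 3 lower in CAL62 cells under 10 µM DEL-22379 (median 0.323, against 0 over all genes, of which 33.9% were called). SKP2, the ubiquitin ligase subunit that marks CDKN1B and CDKN1A for destruction, was lower (-2.82, limma adjusted p = 2.7e-05). FBXO4, a ligase subunit described for cyclin D1, was lower in CAL62 cells (-1.69, adjusted p = 5.5e-05) and in 8505c cells (-1.28, adjusted p = 0.00137) under 10 µM DEL-22379, and was the 1 call of this list in 8505c cells, where 13.6% of all genes were called. Under U0126 6 were lower and 1 higher in CAL62 cells, against 29.2% of all genes called, with CKS1B, the cofactor of SKP2, at -2.33 (adjusted p = 2.75e-05). In 8505c cells, where U0126 gave calls in 12.7% of all genes, it gave 0 in this list by limma, edgeR and DESeq2, with 2 genes at an unadjusted p under 0.05.

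Of 19 transcription factors known to act on these genes, 11 were higher and 1 lower in CAL62 cells under 10 µM DEL-22379 (median 0.848), against 33.9% of all genes called. KLF6, an activator described for CDKN1A, was at 2.14 (limma, adjusted p = 9.12e-06) and KLF4, another such activator, at 2.94 (adjusted p = 5.22e-05). In CAL62 cells under U0126 5 were higher and 6 lower, against 29.2% of all genes called. FOSL1, an AP-1 subunit downstream of ERK, was lower under U0126 in CAL62 cells (-3.15, adjusted p = 6.82e-06) and in 8505c cells (-2.33, adjusted p = 0.000211). In 8505c cells 7 were higher and 2 lower under U0126, against 12.7% of all genes called, and 4 higher and 2 lower under 10 µM DEL-22379, against 13.6%. FOXO4, of a family that activates CDKN1B, was higher in 8505c cells under U0126 (1.19, adjusted p = 0.00164) and under DEL-22379 (1.23, adjusted p = 0.00168). At 1 µM DEL-22379 none of the 4 lists held a call in either line by limma, edgeR or DESeq2, and 3 of these factors in 8505c cells and no other listed gene had an unadjusted p under 0.05.

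**Figure D5:**
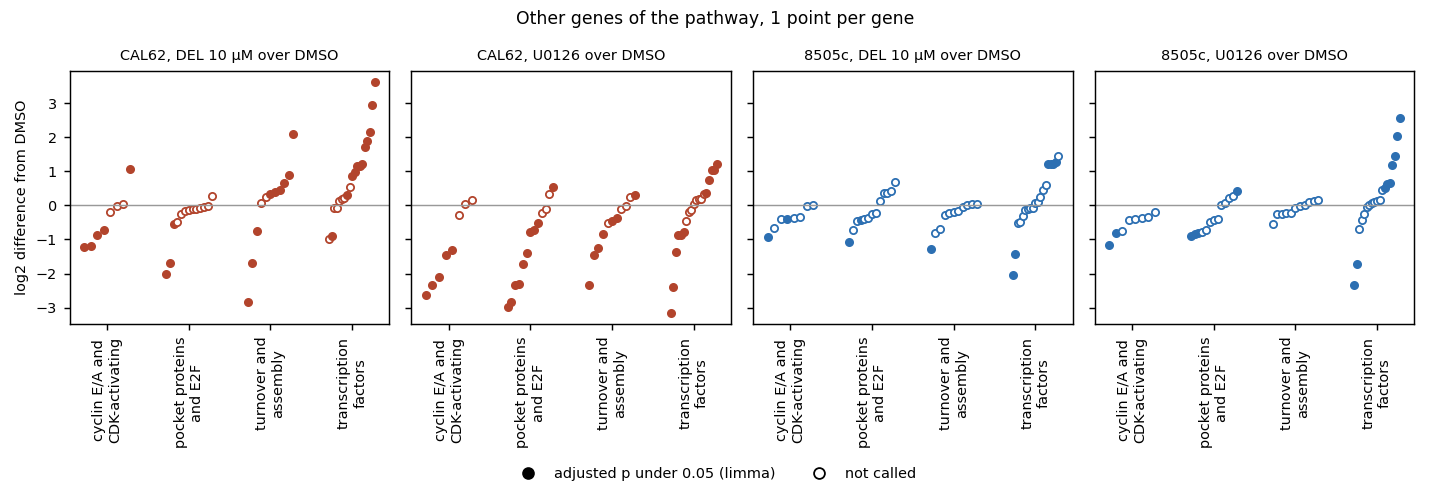
Log2 difference from DMSO (y axis) of the genes of 4 pathway lists (x axis), 1 point per gene in order of value, for 10 µM DEL-22379 and U0126 in CAL62 cells (red) and 8505c cells (blue); filled points passed an adjusted p of 0.05 in limma. In CAL62 cells under U0126, 9 of the 13 pocket protein and E2F genes are filled below 0, and under DEL-22379 11 of the 19 transcription factors are filled above 0.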

How the data were processed

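RNA of 16 libraries was prepared with a stranded mRNA kit and sequenced as pairs of 51 bp reads. The submitters' processing notes name the genome build GRCh38, whereas no aligner, counter or annotation is given in the sources used here. The authors deposited a table of normalised counts (a signal), made by dividing the gene counts of each library by its size factor. Below 200, 100% of values were whole multiples of 1 read within 0.02 reads, so whole reads were recovered. On those reads edgeR called 6313 genes in CAL62 cells with 10 µM DEL-22379 and 2473 in 8505c cells with U0126, against 6476 and 2423 by limma. The 10 genes and all lists were chosen with earlier results of these data known. All 10 genes were described. Of the pathway lists, values are given for at most 4 called genes per list and comparison, from those with the smallest p, besides RB1, E2F1 under DEL-22379 and the markers.

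Differences were fitted with limma 3.58.1 in R 4.3.3 on log2(normalised count + 1), with 1 mean per group, trended and robust moderation and Benjamini-Hochberg adjustment over 19127 genes. Residual degrees of freedom were 8. Alternatives were edgeR 4.0.16 and DESeq2 1.42.0 on recovered reads, other pseudocounts, filters and scalings, each line alone, a replicate block and leaving out each library. With 1 library left out of a group, the remaining one is assumed to vary like the other groups. The steps were tested on simulated reads with genes changed in CAL62 cells under 10 µM DEL-22379. Of 100 genes changed by a log2 difference of 1, 67 were called, and of 100 changed by 2, 100 were. Among the 17760 genes tested there, 18 unchanged ones were called as well. The simulation gave all genes the same spread and no effect of replicate number, so it did not copy the spread of these replicates. Replicates differed beyond sampling noise (chi-square per degree of freedom 16.5 to 77.3), and all 16 were kept. Sequences came from RefSeq, with a window for 7 of the 10 genes. Counting floors cover counting error only.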

Additional observations from a re-analysis of the deposited data

Results flagged for a closer look

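A test of the difference between lines passed the threshold for 4 responses. The response of CDKN1A to 10 µM DEL-22379 was 4.07 higher on the log2 scale in CAL62 than in 8505c cells (SE 0.91, limma, adjusted p = 0.0139). Both treated CAL62 libraries were above both vehicle libraries, whereas the 8505c groups overlapped. The response of CDKN2C to the same dose differed by -1.82 (SE 0.24, adjusted p = 0.000752). For U0126, the response of CCND1 differed by 1.15 (SE 0.25, adjusted p = 0.0186) and that of CDK6 by 1.06 (SE 0.27, adjusted p = 0.0364).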

How the results depend on the processing

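Counts of called genes among those tested, CDKN2B included, moved as follows. In 8505c cells with 10 µM DEL-22379 against DMSO, the count of 2 was 1 with a pseudocount of 0.5, scaling to equal totals, quantile normalization, limma without trended and robust moderation, and edgeR, and 4 with 8505c libraries alone. With U0126 against DMSO in 8505c cells, the count of 4 was 2 under scaling to equal totals and without trended and robust moderation, and 7 with 8505c libraries alone. For U0126 against DEL-22379 in 8505c cells, the count of 2 was 1 with a pseudocount of 0.5 and with no filter on low values. For the same comparison in CAL62 cells, the count of 6 was 4 by edgeR, which called 8123 genes over all, against 8249 in the main fit. Between the vehicle-treated lines the count of 3 was 5 under scaling to equal totals. Over all genes, that scaling gave 10036 calls between these lines, against 10137 in the main fit. In 8505c cells it gave 2273 for U0126, against 2423. For 10 µM DEL-22379 it gave 2625, against 2609, with 2574 under quantile normalization and 2501 by edgeR. Calls over all genes are not given for the other settings of this paragraph, so moves under those are not set against all genes. The count of 2 for the difference between lines under U0126 was 1 without trended and robust moderation, that 1 being CDKN2B, which had no reads in CAL62 cells. Leaving out 1 library at a time gave counts from 0 to 2 for 8505c DEL-22379 10 µM, 1 to 4 for 8505c U0126, 2 to 3 for CAL62 DEL-22379 10 µM, 1 to 4 for CAL62 U0126 and 2 to 4 between vehicle-treated lines. They ran from 1 to 2 for the difference between lines under DEL-22379 and 0 to 2 under U0126, from 1 to 2 for U0126 against DEL-22379 in 8505c cells and 4 to 6 in CAL62 cells, and stayed at 0 for 1 µM DEL-22379 in both lines.

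Replicate numbers run from 1 to 2 in every group, and nothing in the labels says that a number marks a shared culture, batch or day, so the fit with a replicate block is given here only. Deviations of same-numbered libraries correlated across all genes tested with r of 0.22 to 0.504 over the 6 pairs of CAL62 groups. Over those of 8505c cells r was 0.088 to 0.122. Among genes with a mean above 100 normalised counts, r was higher, at 0.275 to 0.815 in CAL62 cells and 0.209 to 0.356 in 8505c cells. With the block, the count of called genes was 5 for CAL62 U0126, with CDK6 (adjusted p = 0.0206) and CDKN1C (adjusted p = 0.0134) added, where 40% of all genes were called. It was 5 between vehicle-treated lines (56.2% of all genes), with CDK6 (0.0498) and CDKN2C (adjusted p = 0.0379) added. It was 4 for the difference between lines under DEL-22379 (26.4% of all genes), with CCND3 (0.0416) and CDKN1B (adjusted p = 0.0409) added. The block also added CDKN1A to the difference under U0126 (-0.97, adjusted p = 0.0404), and CCND3 in 8505c cells (0.0251) and CDKN1B in CAL62 cells (adjusted p = 0.0256) to U0126 against DEL-22379. It took away no call of these genes. The marker MKI67 was called lower in CAL62 cells with 10 µM DEL-22379 under the block (adjusted p = 0.000403) and not without it (adjusted p = 0.0795).

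After the data were seen, CAL62 cells were also fitted by 1 replicate number at a time, with the spread taken from 8505c cells. Each group then held 1 CAL62 library, so log2 differences are given without p-values or counts of calls. With 10 µM DEL-22379 against DMSO, replicate 1 gave -0.55 for CDK6, -0.39 for CDK4, -0.68 for CDKN1B and 3.44 for CDKN1C. For the same comparison, replicate 2 gave -0.75 for CCND1 and -0.51 for CDK6. As treated over DMSO library of the same number, replicates 1 and 2 gave 0.761 and 1.14 for CDK4. The ratios were 0.623 and 1.12 for CDKN1B, 11 and 0.766 for CDKN1C, and 0.931 and 0.594 for CCND1. CDK4, CDKN1B and CDKN1C thus went opposite ways in the replicates, whereas CDK6 was lower in both (0.682 and 0.701). Under U0126, replicate 2 gave -0.77 for CCND3 and -0.40 for CDK4. In the other settings, calls lost and gained over all comparisons were as follows. Limma without trended and robust moderation lost 9 and gained 2, scaling to equal totals lost 5 and gained 3, and quantile normalization lost 4 and gained 2. Each line alone lost 3 and gained 5, and the replicate block lost 0 and gained 9. EdgeR lost 3 and gained 0, and DESeq2 lost 0 and gained 1. No filter on low values lost 4, a pseudocount of 0.5 lost 2 and a pseudocount of 5 gained 1. No called difference changed sign against the main fit. With 2 replicates a group and 8 residual degrees of freedom, log2 differences of CDKN1C had a standard error of 1.41, so its responses were weakly resolved, and a log2 difference near 0.5 in CCND1, CDK4 or CDK6 lay at the threshold.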

Other observations

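The genes beside CDKN2B on chromosome 9 (GRCh38), chosen after its values were seen, differed between the lines as well. CDKN2A, the neighbouring INK4 locus (chr9:21967753-21995301), had no reads in 7 of 8 CAL62 libraries and at most 0.92 normalised counts, against 903.7 to 1312 in 8505c cells. MTAP (chr9:21802543-21937651) had 11.3 to 38.77 in CAL62 cells, against 1173 to 3014 in 8505c cells. CDKN2B-AS1, on the strand opposite to CDKN2B and without exon overlap, had 48.24 to 176.7 in CAL62 cells, against 152.7 to 242.6 in 8505c cells. CDKN2B, CDKN2A and MTAP thus had no overlap between the lines, whereas the ranges of CDKN2B-AS1 overlapped. AL359922.1, annotated across the region (chr9:21802636-22032986), had few counts and went the other way. It stood at 0 to 9.83 in CAL62 cells and at 0 in all 8 8505c libraries. Over all genes tested, 53% were called between the vehicle-treated lines. The share of all genes without overlap is not given here. DNA copy number was not measured.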
